A study of Mus musculus with 13 samples.

Results

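The proteasome genes of whole mouse back skin were followed over 13 collections made at 4 h intervals, with 1 array for each collection. The set was chosen by name alone: every gene whose symbol starts with Psma, Psmb, Psmc, Psmd, Psme, Psmf or Psmg in the array's platform annotation, with the probe set of the highest mean intensity standing for each gene. The rule found 50 of the 19938 genes that had a probe set of their own, and 48 of the 50 were bright enough to be among the 14953 genes tested. The 2 left out as too dim were Psma8, an alternative ring subunit known from testis, and Psmc3ip. Psmc3ip acts in meiotic recombination and Psme3ip1 is named for binding the activator Psme3, so the symbol rule also took these 2 genes, which are not subunits. All mice were C57Bl6 males at postnatal day 46, when the hair follicles of the back are in telogen, the resting phase, and they were kept under 12 h of light and 12 h of darkness. No genotype, drug or other treatment separates the collections. Zeitgeber time (ZT) is the number of hours since the lights came on, so ZT14, ZT18 and ZT22 fell in darkness (6 arrays) and ZT2, ZT6 and ZT10 in light (7 arrays). ZT2 was collected 3 times and each other time of day 2 times; the collections are also called here by hours from the first lights on, hour 2 to hour 50. Each array held RNA of 3 mice pooled in equal amounts, so every error given below is a spread between pools and not between animals, and the number of arrays limits the precision.

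The proteasome is the protease that destroys proteins tagged with ubiquitin. Its core particle is a barrel of stacked rings, in which outer alpha rings gate the entry and inner beta rings hold the cutting sites. A regulatory particle on the end of the barrel binds ubiquitin chains, removes them and threads the protein inwards with a ring of ATPases. Other caps can take its place, and interferon exchanges the catalytic beta subunits for inducible ones that favour peptides for antigen presentation. Cells are known to raise subunit genes together through the factor NRF1, the product of Nfe2l1, when proteasome activity falls. In skin the proteasome removes short-lived proteins of the cell cycle and of the circadian clock.

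Values are linear probe set intensities, which may be compared between arrays for 1 gene but not between genes. Tests were run on log2(intensity + 16), a scale that understates the changes of dim genes. The mean intensities of the tested members ran between 220 for Psmb11, a beta subunit known from thymus, and 6443 for Psmb3. Psma8, the dimmest member, had intensities between 108 and 152, with its lowest, median and highest values at 108, 138 and 147 in the dark and 108, 131 and 152 in the light. Psmb3, a structural beta subunit and the brightest member, had a lowest, median and highest value of 5821, 6008 and 6797 in the dark and of 5640, 6585 and 7475 in the light. The groups overlapped in both genes. Whole skin holds many cell types, and in such bulk RNA fewer cells of a type and less RNA per cell cannot be told apart.

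Across all genes the correlation between arrays lay between 0.886 and 0.992, no 2 arrays were identical, and the array medians ran between 353.8 and 392.8. Markers of skin were present on the arrays: 7 of 8 suprabasal keratinocyte markers and 7 of 7 basal ones were measured, with mean intensities of 2668 to 14052 and of 3150 to 14566. Clock genes kept to time of day, and Dbp, a clock output factor, differed by 4.38 ± 0.34 on the log2 scale between the peak of its fitted curve, at 9.88 h, and the trough (SE, 13 arrays; limma adjusted p = 9.3e-05). Some lists moved on single arrays, and the liver list swung over much of the series. The 5 hair shaft markers measured summed to 22701 at hour 46, against 3523 for the median array, and the 7 liver markers ran between 8967 at hour 46 and 68089. The 7 exocrine pancreas markers summed to 5682 at hour 2, against 2088 for the median array, through Ctrb1 (2958), Cpa1 (1046) and Cpb1 (327). Prss2 (372), Cela1 (273) and Cela2a (583) were below their own means of 422, 303 and 624 there. The 8 leukocyte markers had their lowest sum, 6652, on that array. Hour 2 also held the lowest sums of the 7 dermal fibroblast markers (55913, against 74330 for the median array), the 9 macrophage and dendritic markers (22008 against 29820) and the 6 adipocyte markers (16607 against 20532). The 6 endothelium markers (9196 against 7638) and the 7 suprabasal keratinocyte markers (66538 against 60070) had their highest sums there. At hour 22 the liver markers summed to 19670, against 43423 for the median array.

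The first question was whether the proteasome genes followed a 24 h rhythm, tested by fitting a cosine curve to all 13 arrays. None of the 48 members was called at an adjusted p under 0.05, where 2.13% of all genes were called. At an unadjusted p under 0.05 there were 11 members, with a background of 18.5% over all genes tested. The members were Psma1, Psmb6, Psmb7, Psmc2, Psmc5, Psmd1, Psmd13, Psmd14, Psmd2, Psmd8 and Psmg1, which come from the core, both parts of the regulatory particle and an assembly chaperone. The count was 2 with a score of olfactory and vomeronasal receptor genes, described further on, as a covariate. Over all 14953 genes it was then 1987, against 2770 in the full fit. The members' count was 17 without the second ZT22 array, hour 46, where 3658 of all genes had such a p. It was 7 without the first ZT10 (2215 of all genes) or the first ZT14 array (2176). It was 6 without the second ZT14 (2632), the first ZT18 (2408) or the second ZT18 array (2322). The median fitted peak-to-trough difference of the members was 0.20 on the log2 scale, a fold of 1.15, against 0.19 for all genes. Such a fitted size is never below 0, so a gene with no rhythm also has a positive one.

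What the members had in common was the time of their highest values. Of the 48 fitted peaks, 41 lay between 22 h and 4 h, around lights on, where 30% of all genes peaked. A peak is loosely placed where the fitted difference is small: its SE was 12.0 h for Psmd9, against 0.9 h for Psmb6. Only Psmb11, Psme3 and Psmg3 had fitted peaks between 10 h and 18 h, at 14.1 h, 14.1 h and 16.2 h. Psmb11 and Psmg3 were the dimmest tested members, with mean intensities of 220 and 341, while Psme3 had 2765. The single highest array was hour 2 for 19 members and hour 22 for another 19, together 38 of 48, against a background of 34.9%. Both arrays belong to the first day. The lowest array was hour 14, 38, 42 or 46, all in the dark, for 36 members, against 38.4% of all genes. The median member stood 0.20 above its own mean at hour 2 and 0.19 above it at hour 22 on the log2 scale, against 0.05 at both hour 26 and hour 50 and -0.11 at hour 46. These hours were singled out after the values had been seen, so the counts are descriptions.

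**Figure D1:**
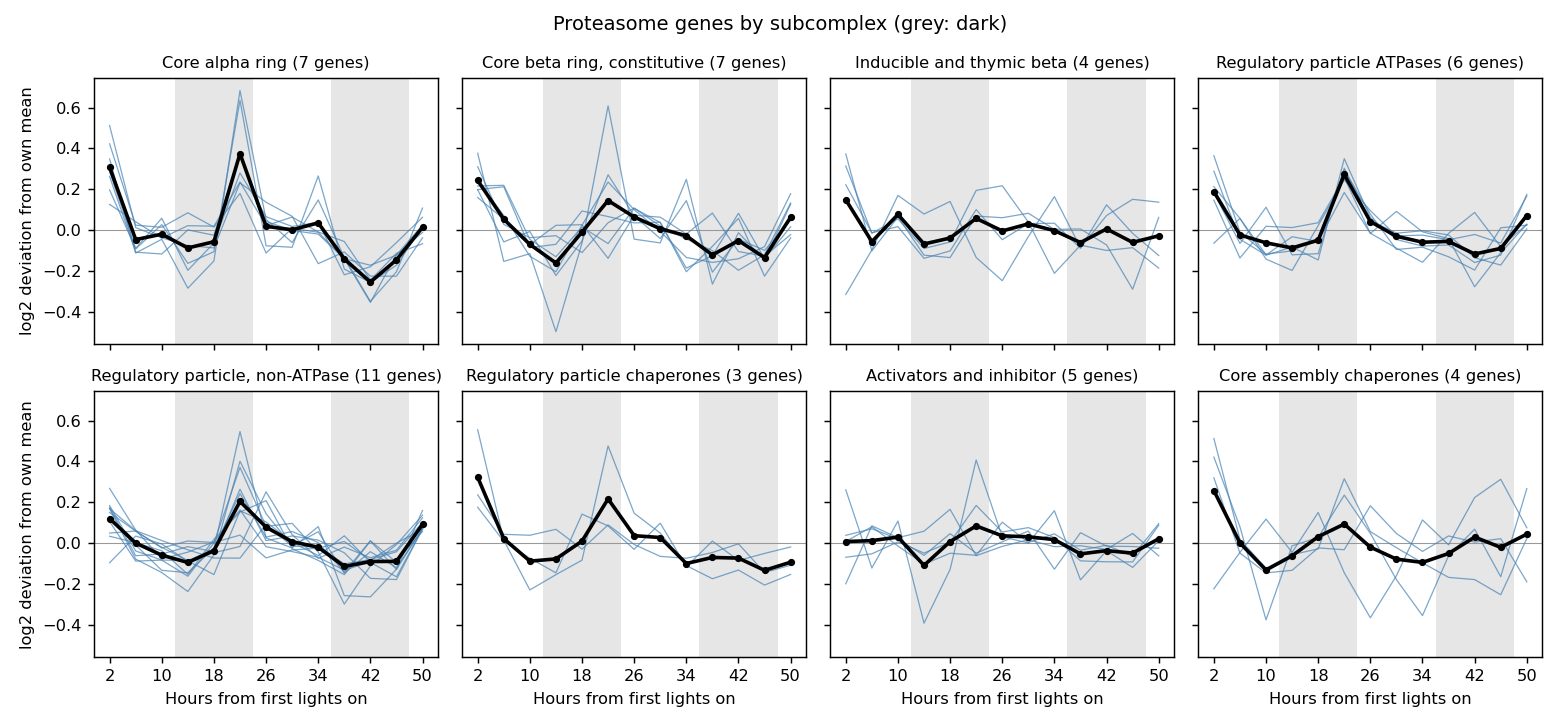
Deviation of each tested proteasome gene from its own mean (log2, vertical axis) on the 13 arrays (hours from the first lights on, horizontal axis), by subcomplex; thin lines are single genes, black lines the mean of the subcomplex, and grey bands the dark. The alpha ring and the ATPases stand highest at hours 2 and 22. The activators and inhibitor average 0.01 at hour 2, 0.08 at hour 22 and -0.11 at hour 14.

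Psmb6 had the smallest p of all members for the 24 h fit. It is the constitutive subunit with caspase-like activity, 1 of the 3 cutting sites of the core. Its intensities were 2994, 2713 and 2864 at ZT2, 2658 and 2519 at ZT6, and 2314 and 2304 at ZT10. In the dark they were 2194 and 2265 at ZT14, 2572 and 2294 at ZT18, and 2981 and 2391 at ZT22. All 3 ZT2 arrays lay above every ZT6, ZT10 and ZT14 array, while the 2 ZT22 arrays differed from each other by more than the ZT2 arrays did. The fitted peak-to-trough difference was 0.35 ± 0.08 on the log2 scale (SE, 13 arrays), a fold of 1.27 with a peak at 1.25 h, and it missed the threshold (limma adjusted p = 0.0675). Psmb6 passed it with quantile normalization (adjusted p = 0.0458), without the second ZT22 array, hour 46 (0.0216), and without that array and the first ZT2 array together (0.0392). It missed it under the other alternatives, with adjusted p-values up to 0.303: that value, with a difference of 0.24, came with the receptor score as a covariate, and others were 0.104 with no filter and 0.187 without the first ZT14 array.

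Psmd14 is the deubiquitinase of the regulatory particle, which cuts the ubiquitin chain off the protein being destroyed. It had 2755, 2710 and 2815 at ZT2, 2407 and 2738 at ZT6, and 2415 and 2482 at ZT10. It had 2286 and 2078 at ZT14, 2561 and 2367 at ZT18, and 3314 and 2547 at ZT22. The ZT14 arrays were the lowest pair and all ZT2 arrays lay above them. The fitted difference was 0.33 ± 0.09 with a peak at 0.75 h (adjusted p = 0.151). Psmc5, an ATPase of the ring that threads proteins into the core, had 1002, 819 and 788 at ZT2, against 721 and 706 at ZT14. Its fitted difference was 0.31 ± 0.10 with a peak at 0.65 h (adjusted p = 0.197).

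Psmg1 is a chaperone that assembles the alpha ring, and its fitted difference was the largest of all members. It had 1028, 790 and 922 at ZT2 and 585 and 594 at ZT10, the 2 lowest values of the series. Its dark arrays ran between 680 and 902, with 757 and 731 at ZT14, 779 and 802 at ZT18, and 902 and 680 at ZT22. The fitted difference was 0.43 ± 0.13 on the log2 scale, a fold of 1.35, with a peak at 23.2 h (adjusted p = 0.206). It passed the threshold without the second ZT22 array (adjusted p = 0.0474), and over all 24 alternatives its adjusted p reached 0.387. Psmd13, a lid subunit of the regulatory particle, had a difference of 0.23 ± 0.08 (adjusted p = 0.241) and passed the threshold without the first ZT2 and the second ZT22 array (adjusted p = 0.0465), and over all 24 alternatives its adjusted p reached 0.574.

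**Figure D2:**
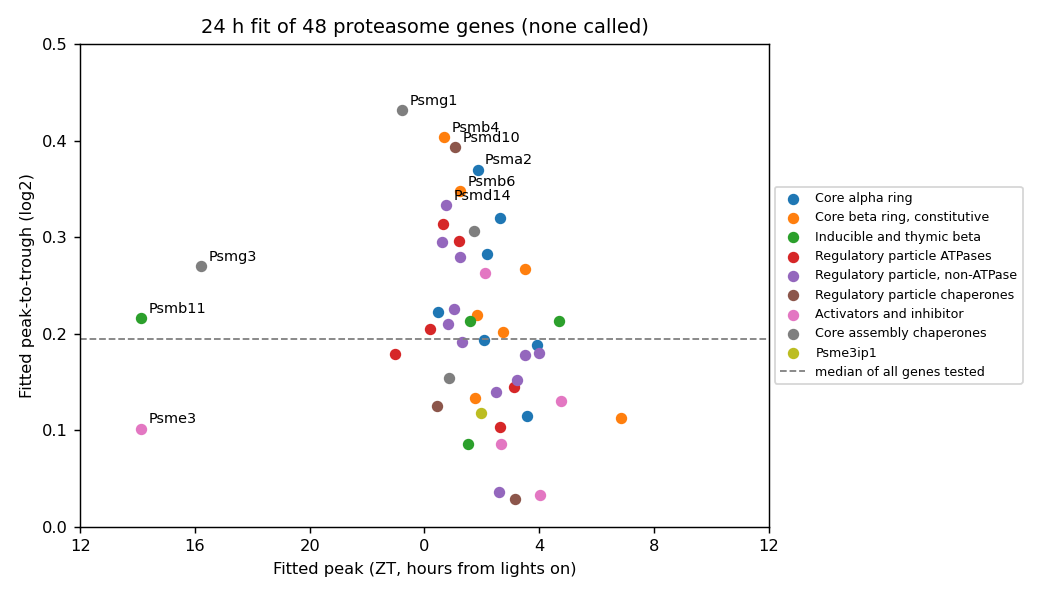
Fitted peak time (horizontal axis, ZT in hours) and fitted peak-to-trough difference (vertical axis, log2) of the 48 tested proteasome genes, coloured by subcomplex; the dashed line is the median of all genes tested, 0.19. Most genes gather between 22 h and 4 h, and Psmb11, Psme3 and Psmg3 stand apart at 14.1 h to 16.2 h. Psmb11 and Psmg3 are the dimmest of the 48.

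The alpha ring forms the gate of the core, and its 7 tested genes all peaked between 22 h and 4 h in the fit. Their fitted differences ran between 0.12 and 0.37, with a median of 0.22, and 1 had an unadjusted p under 0.05. All 7 had their highest array at hour 2 or 22, and 5 had their lowest at hour 42. Psma2 carried the widest swing, with 1105, 897 and 932 at ZT2 and 707 and 786 at ZT14, but 1398 at hour 22 and 748 at hour 46. Its 2 ZT22 arrays were therefore the highest of the series and among the 3 lowest. Psma6 showed the same split, with 3138 at hour 22 and 1786 at hour 46.

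The 7 constitutive beta genes had fitted differences between 0.11 and 0.40, with a median of 0.22. Psmb4, a structural subunit, had the largest at 0.40 ± 0.18, with 4427 at hour 22, 2617 at hour 46 and its lowest value, 2049, at hour 14 (adjusted p = 0.359). Psmb5, the subunit with chymotrypsin-like activity and the main target of proteasome inhibitor drugs, moved less: its lowest, median and highest values were 5481, 6390 and 6841 in the dark and 5564, 6570 and 7429 in the light, and its fitted difference was 0.13 ± 0.10 (adjusted p = 0.635). Psmb7, with trypsin-like activity, had 3729, 3239 and 3294 at ZT2, above each of the other 10 arrays. Its dark values ran between 2619 and 3080, and its fitted difference was 0.27 ± 0.08 with a peak at 3.51 h (adjusted p = 0.183).

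The regulatory particle prepares proteins for the core. Its 6 ATPase genes had fitted differences between 0.10 and 0.31 with a median of 0.19, all with their highest array at hour 2 or 22, and its 11 non-ATPase genes ran between 0.04 and 0.33 with a median of 0.19. All 17 peaks fitted to all 13 arrays lay between 22 h and 4 h. Some of them were loosely placed: the SE of the peak was 6.6 h for Psmd11 and 4.0 h for Psmc6. With a separate curve for each day, the second-day peaks ran between 2.06 h for Psmc5 and 19.2 h for Psmc3. Psmd11, a lid subunit, varied least of all tested members, between 1711 at hour 42 and 1904 at hour 50, with a standard deviation of 0.05 on the log2 scale over the 13 arrays. Psmd6, also of the lid, varied most within the regulatory particle proper, between 990 and 1747, the highest value being hour 22. Psmd1, the scaffold of the base, had 3626 at hour 22, 2522 at hour 46 and its lowest value, 2325, at hour 14. The 3 chaperones that assemble the ATPase ring ran between 0.03 for Psmd9 and 0.39 for Psmd10, also named gankyrin, which had 948, 711 and 574 at ZT2 and 897 and 553 at ZT22.

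The caps and core assembly chaperones varied among themselves. The 5 activator and inhibitor genes had a median fitted difference of 0.10, and 2 of their peaks lay between 22 h and 4 h. Psme1 and Psme2 encode the 2 subunits of an interferon-inducible cap, and their standard deviations over the 13 arrays were 0.06 and 0.21 on the log2 scale. Psme1 had a lowest, median and highest value of 1965, 2026 and 2123 in the dark and of 1873, 2079 and 2152 in the light. Psme2 had 1571, 1894 and 2744 in the dark and 1897, 2110 and 2478 in the light. The fitted differences were 0.03 ± 0.06 for Psme1 and 0.26 ± 0.14 for Psme2, the second with an adjusted p of 0.434, and the difference between these 2 genes was not tested. Psme3, a nuclear cap, ran the other way: its lowest value, 2402, was at hour 2 and its highest, 3097, at hour 18. Psmg3, a core assembly chaperone, had its lowest value, 259, at hour 26 and its highest, 424, at hour 46.

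The inducible beta subunits replace the constitutive ones in cells exposed to interferon, so both sets were compared. Psmb8 and Psmb9 lie on chromosome 17 in the major histocompatibility complex. Psmb8, the inducible counterpart of Psmb5, had a lowest, median and highest value of 466, 535 and 602 in the dark and of 534, 599 and 747 in the light. Psmb9, the counterpart of Psmb6, had 727, 773 and 875 in the dark and 734, 812 and 938 in the light. Psmb10, the counterpart of Psmb7, had 602, 611 and 742 in the dark and 556, 665 and 807 in the light. In all 3 genes the single highest array was hour 2 and the groups overlapped. Their fitted 24 h differences were 0.21 ± 0.11, 0.09 ± 0.09 and 0.21 ± 0.11 in that order of genes, with adjusted p-values of 0.435, 0.759 and 0.424.

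The log2 ratio of each inducible to its constitutive gene was then set between dark and light by a two-sided exact permutation test over the 1716 splits of the 13 arrays. Psmb8 over Psmb5 averaged -3.51 ± 0.11 in the dark (SD, 6 arrays) and -3.39 ± 0.18 in the light (SD, 7 arrays), a difference of -0.12 (exact p = 0.174, 0.313 after adjustment over the 3 pairs). Psmb9 over Psmb6 averaged -1.60 ± 0.15 in the dark and -1.67 ± 0.17 in the light, a difference of 0.06 (exact p = 0.490, adjusted 0.490). Psmb10 over Psmb7 averaged -2.14 ± 0.07 in the dark and -2.23 ± 0.15 in the light, a difference of 0.09 (exact p = 0.209, adjusted 0.313). None of the 3 differences passed the threshold. The level of a ratio mixes 2 probe sets and has no meaning of its own; only its change between arrays does.

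**Figure D3:**
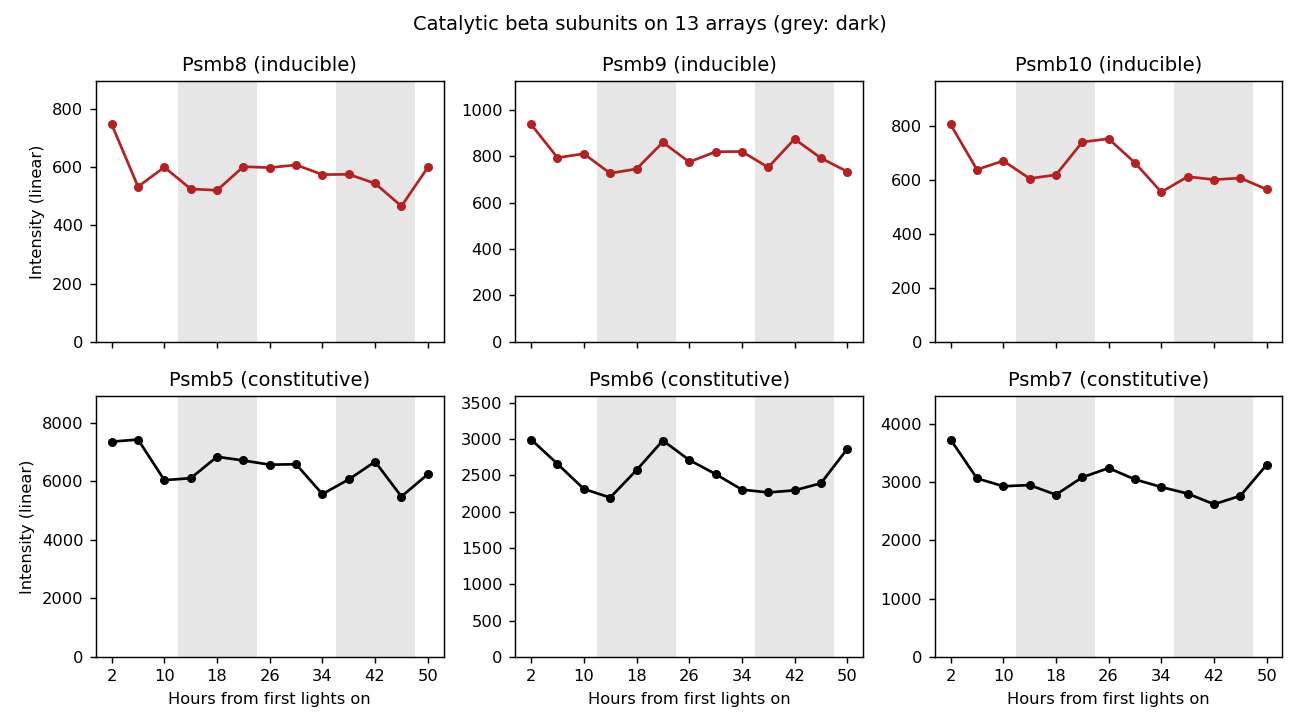
Intensity (linear, vertical axes from 0) of the 3 inducible catalytic beta genes (top) and their constitutive counterparts (bottom) on the 13 arrays (hours from the first lights on); grey bands are the dark and each point is 1 pool of 3 mice. Psmb6 is high at hours 2, 22 and 50, while Psmb8, Psmb9 and Psmb10 each have their highest point at hour 2.

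Dark and light arrays were compared next. No member was called, where 0.0201% of all genes, 3 in number, were called. At an unadjusted p under 0.05 there were 4 members, Psmb7, Psmb8, Psmd8 and Psmf1, with a background of 8.28%. The estimate was below 0 for 43 of the 48 members, against 59.9% of all genes, and above it for Psmb11, Psmc3, Psme3, Psmg1 and Psmg3. The median difference was -0.07 on the log2 scale for the members and -0.02 for all genes. Without the first ZT22 array, hour 22, the members' median was -0.11, with 45 below 0 and 19 at an unadjusted p under 0.05. In that fit the median of all genes was -0.03 and 2771 of 14953 had such a p, against 1238 in the full fit. Without the first ZT2 array, hour 2, the members' median was -0.04, with 36 below 0, and that of all genes was -0.02. The count of members below 0 was 36 with quantile normalization, 34 with a common median and 19 with the receptor gene score as a covariate. The median difference of all genes was 0.00, 0.02 and -0.02 in that order of settings. The share of all genes below 0 was not counted in these alternative fits.

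Psmd8, a lid subunit, had the smallest p for this comparison. Its lowest, median and highest values were 3480, 3549 and 3651 in the dark and 3687, 3897 and 4199 in the light, so its groups did not overlap. The difference was -0.12 ± 0.04 (SE; limma adjusted p = 0.519). Psmb7 had 2619, 2791 and 3080 in the dark and 2914, 3062 and 3729 in the light, with overlap at hours 14 and 22, and a difference of -0.16 ± 0.06 (adjusted p = 0.534). Psmf1 encodes a protein known as an inhibitor of the core particle in the test tube. It had 1297, 1342 and 1384 in the dark and 1380, 1439 and 1498 in the light, with overlap only between hours 42 and 10, and a difference of -0.10 ± 0.04 (adjusted p = 0.552).

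A narrower contrast, picked after the values were seen, set the 3 ZT2 arrays beside the 2 ZT14 arrays. In 31 of 48 members every ZT2 array lay above both ZT14 arrays, against 19.3% of all genes. The reverse held for 1 member, Psme3. Of the subcomplexes, 6 of 7 constitutive beta genes, 9 of 11 non-ATPase genes, 5 of 7 alpha ring genes and 4 of 6 ATPase genes showed it. So did 2 of 4 core assembly chaperones and 2 of 5 activator and inhibitor genes. It held for 1 of 3 regulatory particle chaperones and 1 of 4 inducible and thymic beta genes. The count of 31 was 22 with quantile normalization, against 18.4% of all genes, and 23 with a common median, against 15.1%. It was 6 with the score of the receptor genes described further on regressed out, against 7.28% of all genes. Leaving out 1 of the 5 arrays eases the condition for every gene: it gave 33 to 35 members, against 21.6% to 31.2% of all genes.

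The second day was compared with the first over the 12 arrays of hours 2 to 46, paired by time of day. No member and no gene at all was called (0%), and at an unadjusted p under 0.05 there were 6 members against a background of 6.46%: Psma3, Psma7, Psmb5, Psmd7, Psmd9 and Psmg2. The estimate was below 0 for 43 of 48 members, against 47.1% of all genes, with a median of -0.07 on the log2 scale against 0.01 for all genes. The times of day differed in size. At ZT22 the median difference was -0.30, with 41 of 48 members lower on the second day, against 54.5% of all genes. At ZT2 it was -0.15, again with 41 lower, against 42.3% of all genes, and at ZT18 it was -0.05, with 33 lower, against 52.0%. At ZT6, ZT10 and ZT14 the medians were 0.01, 0.00 and 0.00. The third ZT2 array, hour 50, differed from hour 26 by a median of -0.01. Without the first or the second ZT22 array 34 members were below 0 and their median was -0.04, against 0.01 for all genes. In that fit 1 member and 810 of all genes had an unadjusted p under 0.05, against 966 genes in the full fit. Without the first or the second ZT2 array 43 members were below 0 and their median was -0.07, against -0.01 for all genes. There 1 member and 372 of all genes had such a p. How many of all genes were below 0 was not counted in these fits with an array left out.

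Psma3, an alpha ring gene, had the smallest p for the day. Its values on the second day were 2012, 2190, 2160, 1972, 1699 and 2001 in order of time, against 2921, 2213, 2197, 2309, 2199 and 2466 on the first. Each second-day value was the lower of its pair. The difference was -0.24 ± 0.08 (SE, 12 arrays; limma adjusted p = 0.604). Psmg2, which acts with Psmg1 in alpha ring assembly, had 766, 725, 688, 654, 649 and 615 on the second day and 1057, 745, 674, 707, 722 and 920 on the first, a difference of -0.22 ± 0.09 (adjusted p = 0.604). Psmd7, the structural partner of Psmd14 in the lid, had 1941, 1909, 1872, 1791, 1844 and 1852 on the second day and 2370, 2055, 1862, 1905, 1974 and 2201 on the first, a difference of -0.14 ± 0.06 (adjusted p = 0.604). In Psmg2 and Psmd7 the ZT10 pair ran the other way.

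**Figure D4:**
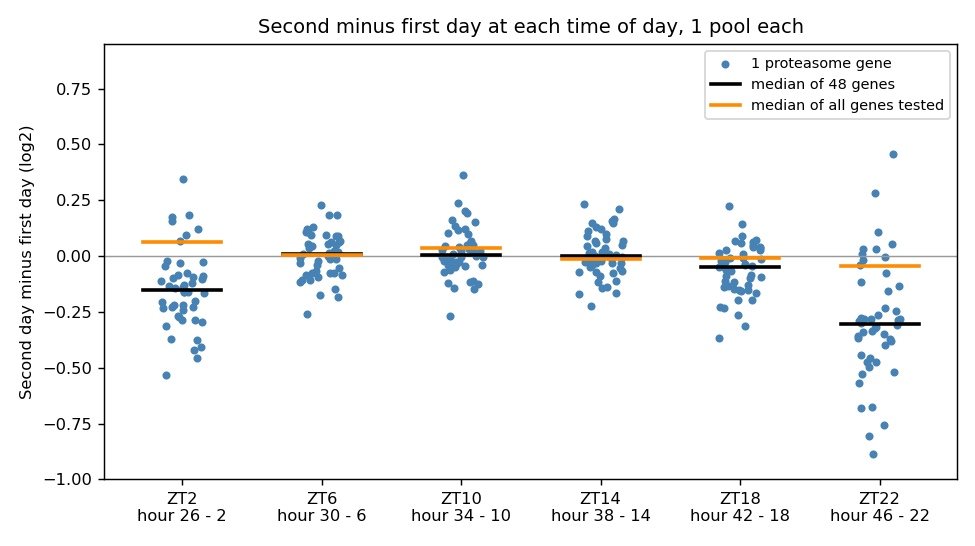
Second day minus first day (log2, vertical axis) at each time of day (horizontal axis, with the hours subtracted) for the 48 tested proteasome genes, 1 pool on each side; black bars are the medians of these genes and orange bars those of all genes tested. The proteasome genes lie at a median of -0.30 at ZT22 and -0.15 at ZT2, and near 0 at ZT6, ZT10 and ZT14.

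Whether the curve itself differed between the days was tested as an interaction. No member and no gene was called (0%), and 9 members had an unadjusted p under 0.05, with a background of 12.8%: Psma2, Psma4, Psma5, Psmb4, Psmc6, Psmd10, Psmd12, Psmd6 and Psmg2. Psmb4 had a fitted difference of 0.20 with a peak at 8.03 h on the second day and of 0.92 with a peak at 24 h on the first (adjusted p = 0.387). Psmd10 had 0.29 with a peak at 4.23 h on the second day and 0.82 with a peak at 0.31 h on the first (adjusted p = 0.387). Leaving out single arrays gave 0 to 12 such members. There were 12 without the first ZT18 array, where 3021 of 14953 genes had such a p, against 1912 in the full fit. There were 0 without the first ZT22 array, hour 22 (823 of all genes). There was 1 without the second ZT22 (1096) or the second ZT10 array (1526).

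Both first-day arrays on which the members were high also stood apart in other genes. The 1194 olfactory and vomeronasal receptor genes, used here as a gauge of the dim end of the arrays, averaged 0.36 below their own mean at hour 2 and 0.16 below it at hour 22, and 0.27 and 0.20 above it at hours 14 and 46 (log2). The members' mean deviations on these arrays were 0.19, 0.20, -0.10 and -0.09. Of the dimmest tested members, Psmb11 ran with the receptor genes there, with intensities of 172, 198, 232 and 244 in that order of arrays. Psmg3 had 288, 305, 327 and 424. It ran with them except at hour 14, where it was below its own mean of 341. At hour 38 the 2 sets did not run opposite, with -0.07 for the receptor genes and -0.09 for the members. With the receptor score as a covariate the median 24 h difference of the members was 0.11, against 0.15 for all genes, and with the score regressed out 21 members were highest at hour 2 or 22, against 22.7% of all genes, and 6 had every ZT2 array above both ZT14 arrays, against 7.28% of all genes. The median member then stood at 0.00 at hour 2 and 0.10 at hour 22. Markers of the skin's own cell types also moved at hour 2: their mean deviations were -0.37 for dermal fibroblasts, -0.39 for macrophages and dendritic cells, -0.36 for adipocytes, -0.33 for leukocytes, 0.29 for endothelium and 0.17 for suprabasal keratinocytes. Liver markers stood at 0.94 at hour 2, 1.22 at hour 10, -1.06 at hour 22, -1.48 at hour 34 and -2.27 at hour 46. The part of these markers, and of the pancreas and hair shaft markers, in the members' values was not tested.

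**Figure D5:**
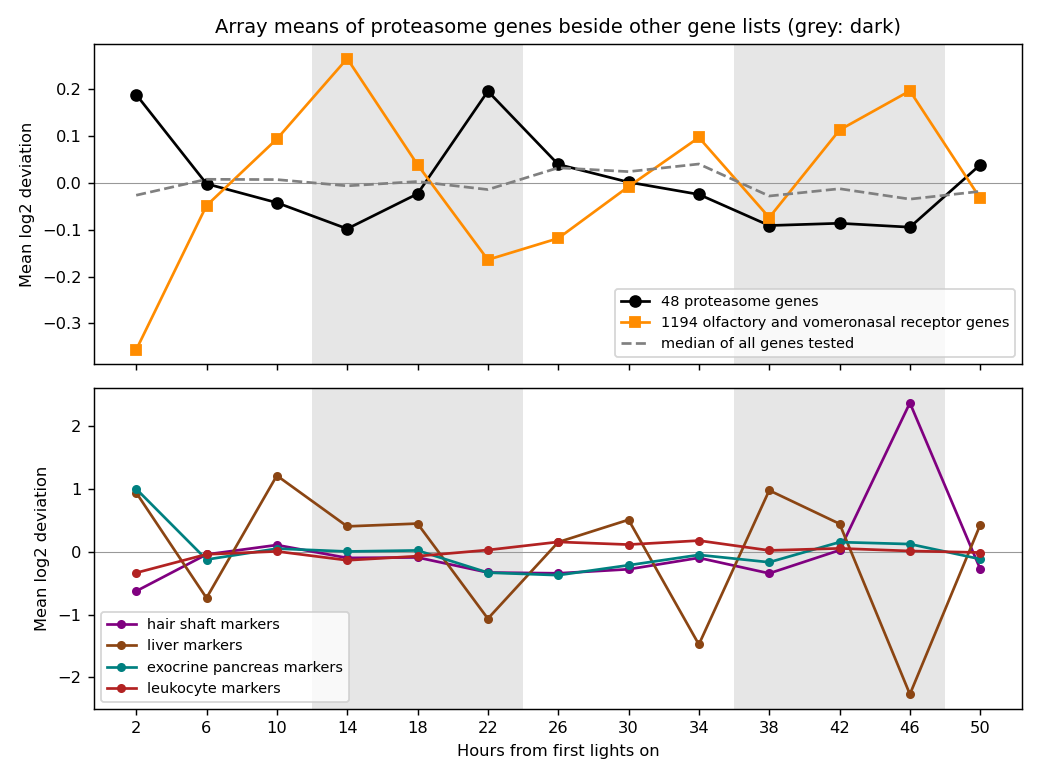
Mean log2 deviation (vertical axes) on the 13 arrays (hours from the first lights on) of the 48 proteasome genes and the 1194 receptor genes, with the median of all genes tested (top), and of 4 marker lists (bottom); grey bands are the dark. The receptor genes are lowest at hour 2 (-0.36), where the proteasome genes stand at 0.19, and the hair shaft markers reach 2.38 at hour 46.

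The members resembled each other to different degrees. Over the 13 arrays 39 of 48 had a Pearson correlation above 0.5 with the mean standardised profile of the tested members, which contains them, and the median was 0.74; 29.5% of all genes exceeded 0.5. The lowest were Psmb11 at -0.68, Psmg3 at -0.65 and Psme3 at -0.60. Outside the set, the 10 genes closest to the profile were 2510002D24Rik (0.99), Pomp (0.98), Cops6 (0.97), Hypk (0.97), Nhlrc2 (0.97), Ssu72 (0.96), Xrcc4 (0.96), Wdr61 (0.96), Cwc15 (0.96) and Dgke (0.96). The points share 13 arrays and the array effects described above. Pomp is itself a proteasome maturation factor, which helps complete the core. Its intensities ran between 1008 and 1465, and its fitted difference was 0.31 ± 0.10 with a peak at 2.08 h (adjusted p = 0.215).

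Genes that work with the proteasome gave few calls. Of 17 partner genes measured (ubiquitin shuttles, deubiquitinases, assembly factors and the Vcp unfoldase), none was called for the 24 h rhythm and 3 had an unadjusted p under 0.05, where 2.13% and 18.5% of all genes did so. The smallest p values were those of Ubqln1, a ubiquitin shuttle, with a difference of 0.22 ± 0.06 and a peak at 21.8 h (adjusted p = 0.157), and of Pomp. Of 9 measured regulators of subunit transcription, none was called and 1 had an unadjusted p under 0.05, against the same 18.5%. It was Nfe2l2, which encodes the oxidative stress factor NRF2, with a difference of 0.26 ± 0.08 and a peak at 11.7 h (adjusted p = 0.187), followed by Irf1, an interferon factor, at 0.24 ± 0.11 (adjusted p = 0.349). Of the ubiquitin and E1 list only Uba6, an activating enzyme, was measured, and it was not called.

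Of 9 genes of the class I antigen pathway, which presents peptides made by the proteasome, 1 was called, with 2.13% called over all genes. It was Calr, a folding chaperone of the endoplasmic reticulum, at 0.46 ± 0.08 with a peak at 22.6 h (limma adjusted p = 0.0210). None of 14 tested interferon responsive genes was called, and 4 had an unadjusted p under 0.05 against 18.5% of all genes, with the smallest for the chemokine Cxcl10 at 0.70 ± 0.20 and a peak at 11.3 h (adjusted p = 0.177) and for Irf7 at 0.55 ± 0.18 (adjusted p = 0.227). Of 14 heat shock genes 3 were called, and 9 had an unadjusted p under 0.05, against the same shares of 2.13% and 18.5%. The called genes were Hsp90aa1 at 0.74 ± 0.11 with a peak at 20.3 h (adjusted p = 0.0117), Hsph1 at 0.92 ± 0.15 with a peak at 19.6 h (0.0182) and Stip1 at 0.51 ± 0.09 with a peak at 21.3 h (0.0183). In none of these lists was a gene called for dark against light or for day.

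The promoters of the members were searched for short motifs in the 250 bases before the start of each gene. RefSeq entries on build GRCm38.p6 were found for 42 of the 50 members and for 27025 genes in all, and both strands were read. The core of the antioxidant response element, TGANNNNGC, which NRF1 and NRF2 bind, was found in 18 of the 42 (42.9%), against 38.7% of all promoters. The GC box GGGCGG was found in 23 (54.8%), against 35.4%, and the CCAAT box CCAAT in 16 (38.1%), against 37.5%. The E-box CACGTG, which the clock factors CLOCK and BMAL1 bind, was found in 5 (11.9%), against 6.86%. The interferon-stimulated response element was found in 3 (7.14%), against 3.46%, the gamma-activated site TTCNNNGAA in 2 (4.76%), against 8.13%, and the TATA box TATAAA in 4 (9.52%), against 14.3%. A match is only a run of letters and is no evidence of binding.

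Below are 4 promoters: those of the 2 genes with the smallest p for the 24 h fit, and 2 that hold an E-box, from a gene with its peak near lights on and from one that ran the other way. All are on the plus strand, written towards the gene start, and capitals mark matches to TGANNNNGC, CACGTG and GGGCGG on either strand (a GC box on the other strand reads CCGCCC).
Psmb6, chr11:70525107-70525356: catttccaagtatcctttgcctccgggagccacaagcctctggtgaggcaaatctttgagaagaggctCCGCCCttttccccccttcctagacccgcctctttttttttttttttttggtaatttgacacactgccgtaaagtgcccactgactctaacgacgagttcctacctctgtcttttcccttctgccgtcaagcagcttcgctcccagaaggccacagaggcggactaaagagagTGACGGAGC
Psmd14, chr2:61711444-61711693: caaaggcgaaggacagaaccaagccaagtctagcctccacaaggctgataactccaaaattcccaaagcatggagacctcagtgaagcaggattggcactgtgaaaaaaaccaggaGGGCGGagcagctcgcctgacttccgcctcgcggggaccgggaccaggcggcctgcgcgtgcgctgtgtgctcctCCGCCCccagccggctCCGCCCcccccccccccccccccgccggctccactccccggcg
Psma4, chr9:54950609-54950858: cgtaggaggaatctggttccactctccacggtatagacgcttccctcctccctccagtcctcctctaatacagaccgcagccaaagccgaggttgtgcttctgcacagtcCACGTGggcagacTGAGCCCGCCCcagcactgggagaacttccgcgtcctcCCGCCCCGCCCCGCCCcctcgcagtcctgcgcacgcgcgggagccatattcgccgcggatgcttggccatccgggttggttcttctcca
Psme3, chr11:101315963-101316212: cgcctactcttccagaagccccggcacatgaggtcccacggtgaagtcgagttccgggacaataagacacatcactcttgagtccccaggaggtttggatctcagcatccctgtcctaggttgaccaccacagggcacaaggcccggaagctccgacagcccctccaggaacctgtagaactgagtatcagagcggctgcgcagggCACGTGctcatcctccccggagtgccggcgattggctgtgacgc
The Psmb6 promoter ends in TGACGGAGC, 9 to 1 bases before the start, and has 1 GC box. The Psmd14 promoter has 3 GC boxes and no match to the other motifs marked. Psma4, an alpha ring gene with a fitted difference of 0.12 ± 0.09 and a peak at 3.58 h (adjusted p = 0.657), holds CACGTG 140 to 135 bases before the start, next to an antioxidant element core that overlaps a GC box. Psme3, with a fitted difference of 0.10 ± 0.07 and a peak at 14.1 h (adjusted p = 0.609), holds CACGTG 44 to 39 bases before the start and no GC box. The 2 promoters with an E-box belong to genes whose fitted peaks lay early in the light and early in the dark, neither of them called.

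Where a gene had several probe sets of its own, they were compared. This was the case for 5 members, Psma3, Psma5, Psmb3, Psmc1 and Psmd2. The 3 Psma3 probe sets all had their highest array at hour 2 and fitted differences of 0.19, 0.19 and 0.16. The second Psmc1 probe set gave 0.29 where the one used gave 0.14, both highest at hour 22. Probe sets of near-identical copies can share signal, and for Psme2 a further probe set, shared with Psme2b and left out, ran between 939.8 at hour 14 and 1523 at hour 22, the same arrays as the lowest and highest of Psme2.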

How the data were processed

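Whole back skin of 13 collections was measured on Affymetrix whole-transcript arrays. The authors deposited linear probe set intensity values; per the submitters' processing notes they were made with Affymetrix Expression Console 1.1.1 and PLIER 2.0. How the arrays were normalized to each other, the genome build and the annotation version: not given in the sources used here. GEO's platform annotation names 1 gene for 21789 of 35557 probe sets, several for 1621 and none for 12147, and only those with 1 gene were used. Intensities were used as deposited, without further normalization, as log2(intensity + 16), and the dimmest 25% of 19938 genes were left out, leaving 14953.

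Arrays were grouped by the labels. Models were fitted in R 4.3.3 with limma 3.58.1 (lmFit, eBayes), with Benjamini-Hochberg adjustment over all 14953 genes: an F test on a 24 h cosine and sine (13 arrays), dark minus light (13 arrays), second minus first day with time of day as a block (12 arrays), and day by rhythm (12 arrays). Collections at 1 time of day on successive days count as replicates; they are separate pools, per the labels. The models were tested on simulated data.

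The members, gene lists and contrasts were chosen with earlier results of these data known. Values are given for members called, the 6 with the smallest rhythm p, the 3 with the smallest p for dark and for day, the brightest and dimmest, the catalytic beta genes, Psme1 and Psme2; other members named were chosen after their values were seen. Pathway lists give called genes, or the 2 with the smallest p. Alternatives covered the offset, filter, normalization, receptor score, probe sets, spread estimate, collection day and arrays left out.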

Additional observations from a re-analysis of the deposited data

Results flagged for a closer look

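In the 6 dark and 7 light arrays of each tested member, the gap between the highest or lowest array and its nearest neighbour was set against Dixon's critical value for its number of arrays. Of 96 groups, 23 had an array that stood apart, where chance gives about 1 in 20 for normal values. The share over all genes was not computed, so whether the count is particular to the members was not tested. Over all genes, 34.9% had their highest array at hour 2 or 22. In the dark, 15 of the 23 were a high value at hour 22: Psma1 3001, Psma2 1398, Psma5 1087, Psma6 3138 and Psma7 1186 in the alpha ring, Psmb2 5305 and Psmb10 742 in the beta rings, Psmc1 1281 and Psmc2 1620 among the ATPases, and Psmd1 3626, Psmd6 1747, Psmd10 897, Psmd12 1479, Psme4 3260 and Psme3ip1 1365. Psmd11 stood apart on the low side at hour 42 with 1711. In the light, 7 were a high value at hour 2: Psma1 3014, Psma3 2921, Psma5 1005, Psmb8 747, Psmc5 1002, Psmd7 2370 and Psmg2 1057. No other array was singled out. Arrays share their effects across genes, so these 23 are not independent.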

How the results depend on the processing

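Over 24 alternatives for the rhythm and for dark minus light, 22 for the day and 19 for the interaction, the number of members called stayed at 0 except for the rhythm. It was 1 with quantile normalization, 2 without the first ZT2 and the second ZT22 array, and 0 to 2 when single arrays were left out; for the other comparisons it was 0 to 0. With collection day as a replicate block, 0 members were called for the rhythm and 0 for dark minus light, and 211 genes in all for the rhythm, against 318; without the time-of-day block 0 members were called for the day. Collection days are no pairing of animals, since each array is a separate pool. The number of all genes called for the rhythm ran between 126 and 428 and for dark minus light between 1 and 16. With the receptor score as a covariate the median dark minus light difference of the members was 0.0050, on the other side of 0 from -0.07; with the score regressed out 21 members were highest at hour 2 or 22 (22.7% of all genes) and 6 had every ZT2 array above both ZT14 arrays (7.28% of all genes), against 33 to 35 (21.6% to 31.2%) with single arrays left out. With the score as a covariate 2 members and 1987 genes in all had an unadjusted rhythm p under 0.05, against 11 and 2770. The cause was not tested. Each time of day rests on 2 or 3 pools, the normalization of the deposited values is unknown, and no error between animals can be had. The interaction was not fitted with the receptor score, with trend or with another block.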
